A study of Macaca mulatta with 6 samples.

Results

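The genes described here encode proteins of the maturing male germ cell: the transition proteins TNP1 and TNP2, the tail proteins ODF1, ODF2 and AKAP4, and the chromatin protein HMGB4. They were chosen by name from a list of 9 that also held the protamines PRM1, PRM2 and PRM3, and were read in bulk RNA sequencing of cultured rhesus monkey (Macaca mulatta) spermatogonial stem cells (SSCs). Of these 9, 6 were among the 17795 genes of the count table, and all 6 passed the filter on low counts. PRM1, PRM2 and PRM3 were not analysed here. The comparison was between 3 libraries of cultures given human platelet-derived growth factor (SSC PDGF+, titled PDGF in the labels) and 3 libraries of PDGF-free control cultures (SSC PDGF-, titled PDGFNO). According to the culture methods, cells were embedded in droplets of basement membrane extract, and the medium held serum and several other factors, GDNF, EGF, bFGF, LIF and Wnt3a among them; these are taken here as shared by both groups. In each group replicate 1 belongs to batch 1, and replicates 2 and 3 belong to batch 2. The donors, their ages, the days in culture and whether replicates came from separate cultures are not stated, and the labels give the tissue as testis, although the study describes cultured cells.

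During spermiogenesis, the last phase of sperm formation, the haploid spermatid removes most histones from its DNA, places transition proteins there for a short time and then replaces them with protamines, small proteins rich in arginine that pack the sperm nucleus. In the same phase it builds the tail, in which outer dense fibres and a fibrous sheath surround the axoneme. Transcripts of TNP1 and TNP2 are classical markers of spermatids.

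Both transition proteins owe their binding to DNA to basic residues, and their coding sequences are shown to make these residues visible. In RefSeq transcripts of Mmul_10, TNP1 has 168 coding bases, and 21 of its 55 codons (38.2%) encode arginine or lysine. TNP2 has 426 coding bases with 27 such codons of 141 (19.1%), and its last 300 bases hold 23 of them. The lines give TNP1 whole, from 2 coding exons on the minus strand at chr12:104246976-104247114 and chr12:104246748-104246776, and coding bases 127 to 426 of TNP2, likewise on the minus strand, at chr20:11234037-11234319 and chr20:11233151-11233167. Capitals mark the arginine and lysine codons.
TNP1: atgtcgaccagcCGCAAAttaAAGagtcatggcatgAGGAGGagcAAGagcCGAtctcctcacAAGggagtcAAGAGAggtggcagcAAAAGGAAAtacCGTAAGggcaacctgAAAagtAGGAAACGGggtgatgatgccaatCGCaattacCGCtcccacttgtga
TNP2: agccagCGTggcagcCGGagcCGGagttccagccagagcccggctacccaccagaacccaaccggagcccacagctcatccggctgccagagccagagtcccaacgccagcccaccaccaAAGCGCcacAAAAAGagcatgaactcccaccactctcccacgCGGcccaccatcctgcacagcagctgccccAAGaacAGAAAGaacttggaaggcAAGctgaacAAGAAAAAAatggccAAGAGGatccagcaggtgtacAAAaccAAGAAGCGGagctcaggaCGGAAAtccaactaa

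The arginine and lysine codons run along the whole of TNP1, whereas the printed stretch of TNP2 has most of them near its 3' end. HMGB4, a protein with HMG boxes that is made in spermatids, has 26.2% such codons. ODF2 has 18.1%, ODF1 14.6% and AKAP4 12.4%, so that ODF2 lies close to TNP2 in this measure. ODF1 is the richest in cysteine, with 38 cysteine codons of 253, against 6 in TNP2 and 0 in TNP1.

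All 6 genes were lower in SSC PDGF+ than in SSC PDGF-. TNP1, TNP2, ODF1, AKAP4 and HMGB4 fell between 8.97- and 10.5-fold, whereas ODF2 fell 1.98-fold. Each of the 6 passed the edgeR quasi-likelihood test with Benjamini-Hochberg adjustment over 11539 genes at an adjusted p under 0.05, where 10.7% of all tested genes were called lower and 7.61% higher. Their CPM did not overlap between the groups in any case, which held in the lower direction for 19.3% of tested genes. In bulk libraries, fewer cells of a type and less RNA per cell cannot be told apart. Total counts were 13095467 to 14102697 under PDGF against 10593805 to 11605908 in SSC PDGF-, so levels are given in CPM (counts scaled to the library total) after TMM normalization.

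**Figure D1:**
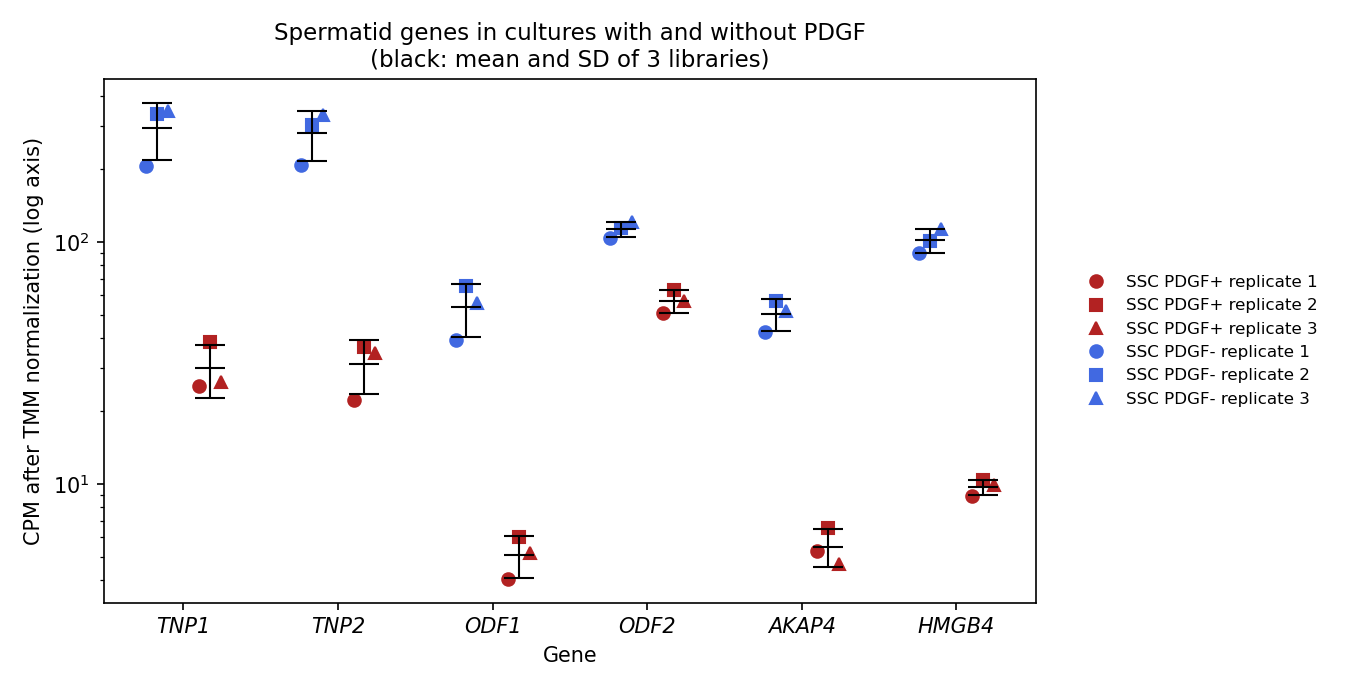
CPM of the 6 genes in each library on a log axis, with circles for replicate 1, squares for replicate 2 and triangles for replicate 3, and black marks for the mean and SD of 3 libraries. The SSC PDGF- points of each gene lie above all its SSC PDGF+ points, and the gap is narrowest for ODF2 (57.0 against 113 CPM on average).

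TNP1, the smaller transition protein, had 374, 491 and 349 counts in SSC PDGF+ replicates 1, 2 and 3, and 2499, 3513 and 3533 counts in SSC PDGF- replicates 1, 2 and 3. The lowest PDGF-free library, replicate 1 of batch 1, was 5.35 times the highest PDGF library in CPM. The level was 30.0 ± 7.33 CPM under PDGF against 296 ± 78.7 CPM in the controls (SD, n = 3 each). This is a log2 fold change of -3.30 with a standard error of 0.27 (adjusted p = 0.000239 by edgeR). Only 1.20% of the tested genes had a lower log2 fold change. Within batches the log2 difference was -3.02 in batch 1 and -3.43 in batch 2.

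TNP2, the larger and zinc-binding transition protein, had 330, 471 and 463 counts in SSC PDGF+ against 2515, 3159 and 3396 counts in SSC PDGF-, in the order of the replicates. As with TNP1, replicate 1 was the lowest library of the PDGF-free group, and the groups lay far apart. Levels were 31.3 ± 7.88 CPM under PDGF against 281 ± 65.9 CPM in the controls (SD, n = 3 each). The log2 fold change was -3.17 with a standard error of 0.26 (adjusted p = 0.000261 by edgeR), and -3.21 and -3.15 in batches 1 and 2.

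HMGB4 had 132, 132 and 131 counts in SSC PDGF+ against 1094, 1051 and 1154 counts in SSC PDGF-. Its replicates were the tightest among the 5 genes that fell most, at 9.69 ± 0.718 CPM under PDGF against 101 ± 11.6 CPM in the controls (SD, n = 3 each). The log2 fold change was -3.38 with a standard error of 0.17 (adjusted p = 4.6e-05 by edgeR). In Mmul_10 the gene lies at chr1:190773353-190775106 on the minus strand, inside CSMD2 on the opposite strand, and whether counting used the strand is not given in the sources used here. CSMD2 itself had 36, 60 and 53 counts in SSC PDGF+ against 17, 15 and 19 counts in SSC PDGF-, fewer than HMGB4 in every library and more with PDGF than without.

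Among the tail genes, ODF1 encodes a cysteine-rich main protein of the outer dense fibres, and lies at chr8:102819251-102828942 on the plus strand. It had 60, 77 and 69 counts in SSC PDGF+ against 479, 684 and 571 counts in SSC PDGF-. The groups did not overlap, and the means were 5.08 ± 0.989 CPM under PDGF against 53.6 ± 13.2 CPM in the controls (SD, n = 3 each). The log2 fold change of -3.40, with a standard error of 0.26, was the lowest of the 6 genes (adjusted p = 0.000183 by edgeR).

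AKAP4, at chrX:49995084-50005325 on the minus strand, encodes the main protein of the fibrous sheath, which anchors protein kinase A. It had 78, 84 and 62 counts in SSC PDGF+. In SSC PDGF- it had 515, 595 and 527 counts, every library above every PDGF library. Means were 5.50 ± 0.976 CPM under PDGF against 50.3 ± 7.44 CPM in the controls (SD, n = 3 each), with a log2 fold change of -3.19 and a standard error of 0.21 (adjusted p = 0.000106 by edgeR).

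ODF2 stood apart from the others. Its protein is part of the outer dense fibres and also of centrosomes and basal bodies in many cell types. It had 753, 805 and 760 counts in SSC PDGF+ against 1266, 1191 and 1230 counts in SSC PDGF-, a narrow range in both groups. It was the most abundant of the 6 by counts in the PDGF libraries, and in SSC PDGF- it had fewer counts than TNP1 and TNP2 in every library. The means were 57.0 ± 6.06 CPM under PDGF against 113 ± 8.34 CPM in the controls (SD, n = 3 each), which gives a log2 fold change of -0.99 with a standard error of 0.14 (adjusted p = 0.00323 by edgeR). A lower log2 fold change was found in 10.2% of tested genes. Differences were -1.03 in batch 1 and -0.97 in batch 2, and the call was lost when replicates 2 and 3 of each group were summed into 1 library (adjusted p = 0.0735). ODF2 lies at chr15:12080824-12127854 on the minus strand, where the annotation lists 24 transcripts and a tRNA gene on the opposite strand, and the counts per gene do not separate them.

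A difference of the fall between batches was tested as the interaction of PDGF with batch. Of the 11539 genes, 0 passed the adjusted threshold in edgeR, and 526 had an unadjusted p under 0.05. Among the 6 genes, TNP1 had the lowest p, with an interaction of -0.38 on the log2 scale. Its unadjusted p was 0.0478, and its adjusted p was 0.968 by edgeR over all tested genes.

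Per kilobase of exon sequence, levels can be compared between genes. In SSC PDGF- the order was TNP1 at 555 ± 148 CPM per kb (SD, n = 3), TNP2 at 432 ± 101, HMGB4 at 57.7 ± 6.62, ODF1 at 50.6 ± 12.5, ODF2 at 26.1 ± 1.93 and AKAP4 at 16.0 ± 2.37. The SD ranges of TNP1 and TNP2 overlapped, but TNP1 was higher in each PDGF-free library (385 against 318, 631 against 466, and 649 against 512 CPM per kb). HMGB4 was above ODF1 in replicates 1 and 3 and below it in replicate 2 (57.4 against 61.8). With PDGF, TNP1 (56.2 ± 13.7) and TNP2 (48.1 ± 12.1) again led, and ODF2 at 13.2 ± 1.40 CPM per kb stood above HMGB4 (5.53 ± 0.409), ODF1 (4.80 ± 0.933) and AKAP4 (1.75 ± 0.311). Only ODF2 moved relative to the other genes in this order. With PDGF, TNP1 was above TNP2 in replicates 1 and 2 and below it in replicate 3 (49.2 against 53.5), and HMGB4 was above ODF1 in each library. The lengths are those of all annotated exons of a gene, which are longer than a single transcript for ODF2 and AKAP4.

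A ratio of 2 genes within a library needs no normalization between libraries. It shows whether the genes moved in a fixed proportion. With TNP1 as the denominator, 4 of the 5 other genes had ratios that overlapped between the groups, and ODF2 did not. Over all tested genes, the ratio to TNP1 did not overlap in 96.1%, and its mean changed by less than 1 log2 unit in 3.39%.

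TNP2 to TNP1 was 0.882, 0.959 and 1.33 in SSC PDGF+ against 1.01, 0.899 and 0.961 in SSC PDGF-. The transition proteins were thus near parity in every library, and the PDGF libraries lay both below and above the PDGF-free ones. The log2 difference of the group means was 0.12 (p = 0.9, exact permutation test, two-sided), within the SD of 0.31 among PDGF libraries. The ratio of summed counts changed 1.10-fold with a 95% interval of 1.01 to 1.19 for counting error alone. That interval lies just above 1, but the log2 SD between PDGF libraries was itself above the counting SD of 0.10.

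ODF1 to TNP1 was 0.160, 0.157 and 0.198 with PDGF, and 0.192, 0.195 and 0.162 without. The ranges overlapped, with a log2 difference of -0.08 (p = 0.7, exact permutation test, two-sided) and a counting interval of 0.795 to 1.09 for the change of the summed ratio. AKAP4 to TNP1 was 0.209, 0.171 and 0.178 with PDGF, and 0.206, 0.169 and 0.149 without. It too overlapped, with a log2 difference of 0.10 (p = 0.5, exact permutation test, two-sided) and a counting interval of 0.920 to 1.25. Without SSC PDGF+ replicate 3 the ODF1 ranges no longer overlapped (log2 difference -0.19), and without SSC PDGF- replicate 1 those of AKAP4 did not (0.23).

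HMGB4 to TNP1 was 0.353, 0.269 and 0.375 with PDGF, and 0.438, 0.299 and 0.327 without. The log2 difference was -0.08 (p = 0.8, exact permutation test, two-sided) and the counting interval 0.833 to 1.06. In both groups replicate 2 was the lowest. No p under 0.1 is possible with 3 libraries against 3, so these tests do not show that the ratios of TNP2, ODF1, AKAP4 and HMGB4 stayed fixed. By replicate number, the log2 difference of AKAP4 to TNP1 was above 0 in all 3 pairs (0.02, 0.02 and 0.26), and in batch 2 alone its groups did not overlap. Those of TNP2, ODF1 and HMGB4 differed in sign between pairs, with a largest value of 0.46 for TNP2.

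ODF2 to TNP1 was 2.01, 1.64 and 2.18 in SSC PDGF+ against 0.507, 0.339 and 0.348 in SSC PDGF-. Every PDGF library had more ODF2 than TNP1 counts, and every PDGF-free library had fewer. The ratio of summed counts was 4.94 times as high with PDGF as without, with a counting interval of 4.56 to 5.35, and the log2 difference of group means was 2.30 (p = 0.1 in an exact permutation test on both sides, the lowest possible with 3 libraries against 3). It was 1.99 in batch 1 and 2.46 in batch 2.

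**Figure D2:**
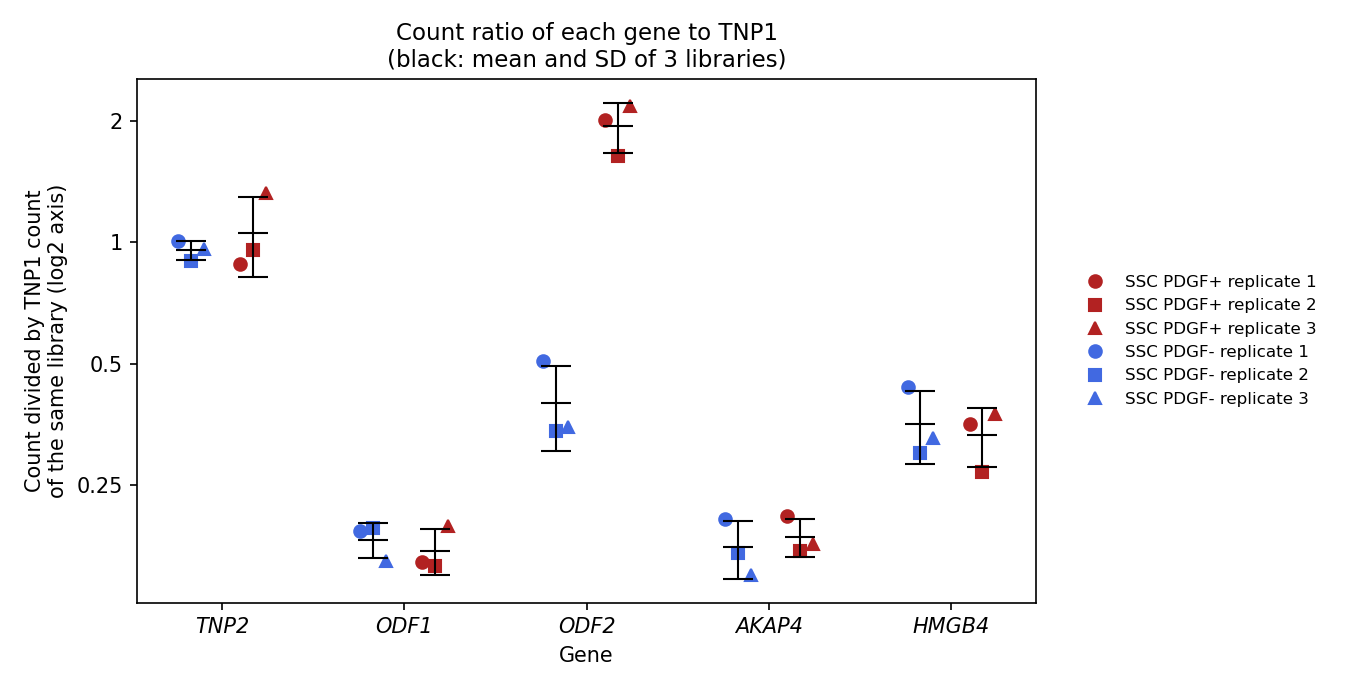
Count of each gene divided by the TNP1 count of the same library on a log2 axis, with markers for the replicates and black marks for the mean and SD of 3 libraries. The red and blue points mix for TNP2, ODF1, AKAP4 and HMGB4, and separate for ODF2 (mean ratio 1.94 with PDGF and 0.398 without).

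The 6 genes form 15 pairs. In the 10 pairs without ODF2 the groups overlapped, and the absolute log2 difference of the ratio was at most 0.21, for TNP2 to ODF1 (two-sided exact permutation test, p between 0.2 and 1.0). Log2 SDs within a group were 0.082 to 0.41 over these pairs. TNP2 to ODF1 had a log2 difference above 0 at every replicate number (0.06 to 0.40), as had TNP2 to HMGB4 (0.12 to 0.26). AKAP4 to HMGB4 had too (0.06 to 0.33), AKAP4 to TNP1 also kept its sign, and the rest differed in sign. Log2 counting intervals were 0.003 to 0.46 for TNP2 to ODF1, 0.045 to 0.40 for TNP2 to HMGB4 and -0.07 to 0.45 for AKAP4 to HMGB4. A fixed proportion is thus not shown for these pairs. In the 5 pairs with ODF2 no groups overlapped, and the ratio changed 4.53- to 5.23-fold, with p = 0.1 in each (two-sided exact permutation test). ODF2 to HMGB4 was the steadiest ratio within a group, with log2 SDs of 0.050 with PDGF and 0.062 without, around means of 5.87 and 1.12. The counting SDs of this pair were 0.14 and 0.060, so its spread with PDGF was under what counting error alone would give. These pairs share genes and libraries and are not independent, and no p was adjusted over them, since none can fall under 0.1.

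As shares of the summed counts of the 6 genes, ODF2 made up 41.4 ± 2.26% under PDGF against 12.9 ± 1.95% in the controls (SD, n = 3 each). The shares of the other 5 genes were all lower with PDGF, from 32.8 ± 2.52% to 21.5 ± 2.41% (SD, n = 3) for TNP1 and from 31.2 ± 1.30% to 22.4 ± 3.09% for TNP2, and shares must sum to the whole. Left to themselves, without ODF2, the 5 genes had overlapping shares. TNP1 then held 36.7 ± 3.64% with PDGF and 37.6 ± 2.08% without (SD, n = 3), and TNP2 held 38.2 ± 4.65% and 35.8 ± 1.02%. HMGB4 followed with 12.1% and 13.2%, ODF1 with 6.24% and 6.85%, and AKAP4 with 6.82% and 6.53%.

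**Figure D3:**
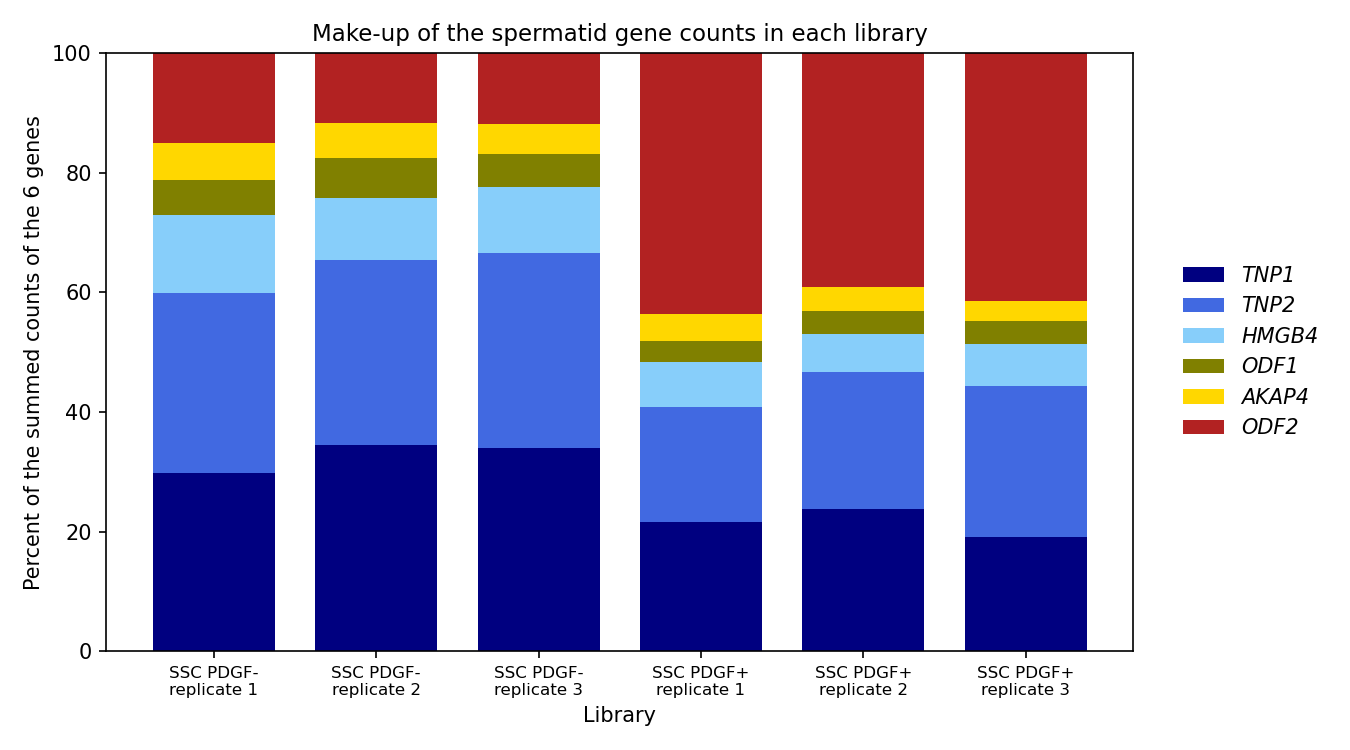
Stacked bars of the percent of the summed counts of the 6 genes in each library, from 0 to the whole. The ODF2 segment spans 39.1% to 43.6% of each SSC PDGF+ bar and 11.7% to 15.1% of each SSC PDGF- bar.

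Among the genes with the steadiest ratio to TNP1 over the 6 libraries, out of 10584 genes with an average log2 CPM not under 1, leaving out the 6 genes and LOC identifiers, were DES, GSG1, TEKT1 and GARIN3. Their SD of the log2 ratio was 0.139 to 0.158, against a median of 1.87 over all tested genes. By the same measure ODF1 had an SD of 0.157 (rank 4), AKAP4 0.185 (rank 9), TNP2 0.214 (rank 15), HMGB4 0.248 (rank 20) and ODF2 1.28 (rank 657). These ranks describe 6 libraries that fall into 2 groups, so that any gene with a like fold change and small spread ranks high.

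DES, desmin of muscle intermediate filaments and a marker here of peritubular myoid cells, had 43, 53 and 48 counts under PDGF against 323, 398 and 392 in the controls. The germ cell gene GSG1 had 99, 105 and 77 counts under PDGF against 542, 723 and 871 in the controls. TEKT1, a tektin of ciliary and flagellar microtubules, had 5, 8 and 5 counts under PDGF against 47, 55 and 52 in the controls. All 3 had groups far apart and log2 fold changes of -3.27, -3.27 and -3.39 (edgeR, adjusted p at most 0.000911). GARIN3 had 12, 15 and 10 counts against 69, 98 and 86.

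The other genes of the pathway were read from 3 lists. Among sperm chromatin genes, which act in the exchange of histones, 10 were in the table and 7 were tested. Of these, 3 were lower, 0 higher and 4 not called, beside 10.7% lower and 7.61% higher over all tested genes. The median log2 fold change was -0.13 against 0.02 over all tested genes. TSSK6, a kinase needed for sperm chromatin condensation, had 29, 46 and 59 counts under PDGF against 190, 238 and 212 in the controls, a log2 fold change of -2.57 (adjusted p = 0.00148 by edgeR). PHF7, a ubiquitin ligase for histones in spermatids, had 190, 190 and 186 counts under PDGF against 809, 817 and 845 in the controls. Its log2 fold change was -2.45 (adjusted p = 0.000106 by edgeR). In neither gene did the groups overlap.

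CHD5, a chromatin remodeller of spermatids, had 19, 17 and 29 counts under PDGF against 46, 39 and 44 in the controls. The log2 fold change of -1.30 (adjusted p = 0.0267 by edgeR) was the smallest of the 3. Its call was lost without SSC PDGF+ replicate 1 (0.0745), SSC PDGF+ replicate 2 (0.104), SSC PDGF- replicate 2 (0.0695) or SSC PDGF- replicate 3 (0.0922), all adjusted p of edgeR, and with replicates 2 and 3 summed (0.126). RNF8, PYGO2, UBE2B and KDM3A, which are used in many cell types, had log2 fold changes of -0.11, -0.13, 0.09 and 0.40 and were not called. With the replicate number as a block KDM3A was called higher (adjusted p = 0.000221), a fit in which 29.0% of all tested genes were called lower and 31.1% higher.

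Sperm tail and midpiece genes had 20 in the table and 17 tested. Of these, 12 were lower, 0 higher and 5 not called, beside 10.7% lower and 7.61% higher over all tested genes. The median log2 fold change was -2.75 against 0.02 over all tested genes. All 17 had a negative log2 fold change. With at least 10 counts in every library, 6 of 10 tested were lower. The largest called change was that of ROPN1B, a fibrous sheath protein related to ropporin, which had 6, 3 and 4 counts under PDGF against 64, 57 and 59 in the controls (log2 fold change -4.08, adjusted p = 0.000275 by edgeR). ODF4, another outer dense fibre gene, had 6, 1 and 4 counts against 39, 30 and 33, a log2 fold change of -3.49 (adjusted p = 0.0025 by edgeR). LDHC, the lactate dehydrogenase of male germ cells, had 3, 8 and 11 counts against 66, 57 and 77, with -3.47 (adjusted p = 0.0018 by edgeR).

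The other tail and midpiece genes called lower were OAZ3, SPA17, SMCP, CYLC1, TCP11, CCIN, AKAP14, CABYR and GAPDHS. Their log2 fold changes ran from -3.30 for OAZ3, the antizyme of spermatids, to -1.37 for CABYR. In 10 of the 17 genes the ratio to TNP1 changed by less than 1 log2 unit, against 3.39% of all tested genes. The median change of that ratio was 0.37 over the list and 3.31 over all tested genes. ODF4, ROPN1B, LDHC, CYLC1 and AKAP14, with changes under 1 log2 unit, had few counts under PDGF. They passed the filter on low counts through their SSC PDGF- libraries, so a fall was partly built into their being tested. The share of the list is therefore no independent support for a fixed proportion.

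Genes that regulate transcription, storage or processing of spermatid RNA had 16 in the table and 15 tested, of which 5 were lower, 0 higher and 10 not called, beside 10.7% lower and 7.61% higher over all tested genes. Their median log2 fold change was -0.33. With at least 10 counts in every library, 2 of 11 tested were lower. YBX2, a germ cell protein that binds stored mRNAs, those of protamines among them, had 28, 33 and 35 counts under PDGF against 252, 298 and 301 in the controls (log2 fold change -3.47, adjusted p = 0.000141 by edgeR). CAMK4, a calcium-dependent kinase, had 7, 6 and 0 counts against 34, 40 and 25, with -3.21 (adjusted p = 0.0132 by edgeR, and 0.0508 without SSC PDGF- replicate 2). Both were lower in every PDGF library than in any PDGF-free one.

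PIWIL1, which binds small RNAs in the germ line, had 3, 1 and 0 counts against 10, 13 and 9, a log2 fold change of -3.20 that rests on few counts (adjusted p = 0.0215 by edgeR). The call was lost without SSC PDGF+ replicate 2 (0.0800), SSC PDGF+ replicate 3 (0.0652), SSC PDGF- replicate 2 (0.0730) or SSC PDGF- replicate 3 (0.0579), and with replicates 2 and 3 summed (0.0834), all adjusted p of edgeR. The remaining 2 genes called lower were FHL5, a coactivator of CREM, with a log2 fold change of -1.98, and the transcription factor SOX30 with -2.94.

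CREM, a transcription factor known to activate transition protein and protamine genes, had 1357, 942 and 980 counts under PDGF against 1183, 781 and 708 in the controls. Its level was 79.6 ± 10.4 CPM under PDGF against 80.4 ± 14.7 CPM in the controls (SD, n = 3 each), and the test gave an adjusted p of 0.961 (edgeR). Counts per gene in bulk libraries do not tell from which transcripts or cells this level came. With the replicate block 1 gene of this list, BRWD1, was called higher (log2 fold change without the block 0.34). KDM3A, RNF8, PYGO2, UBE2B, FHL5, SOX30, CREM, BRWD1 and the tail genes after LDHC fall outside the naming rule and were picked once their values had been seen.

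**Figure D4:**
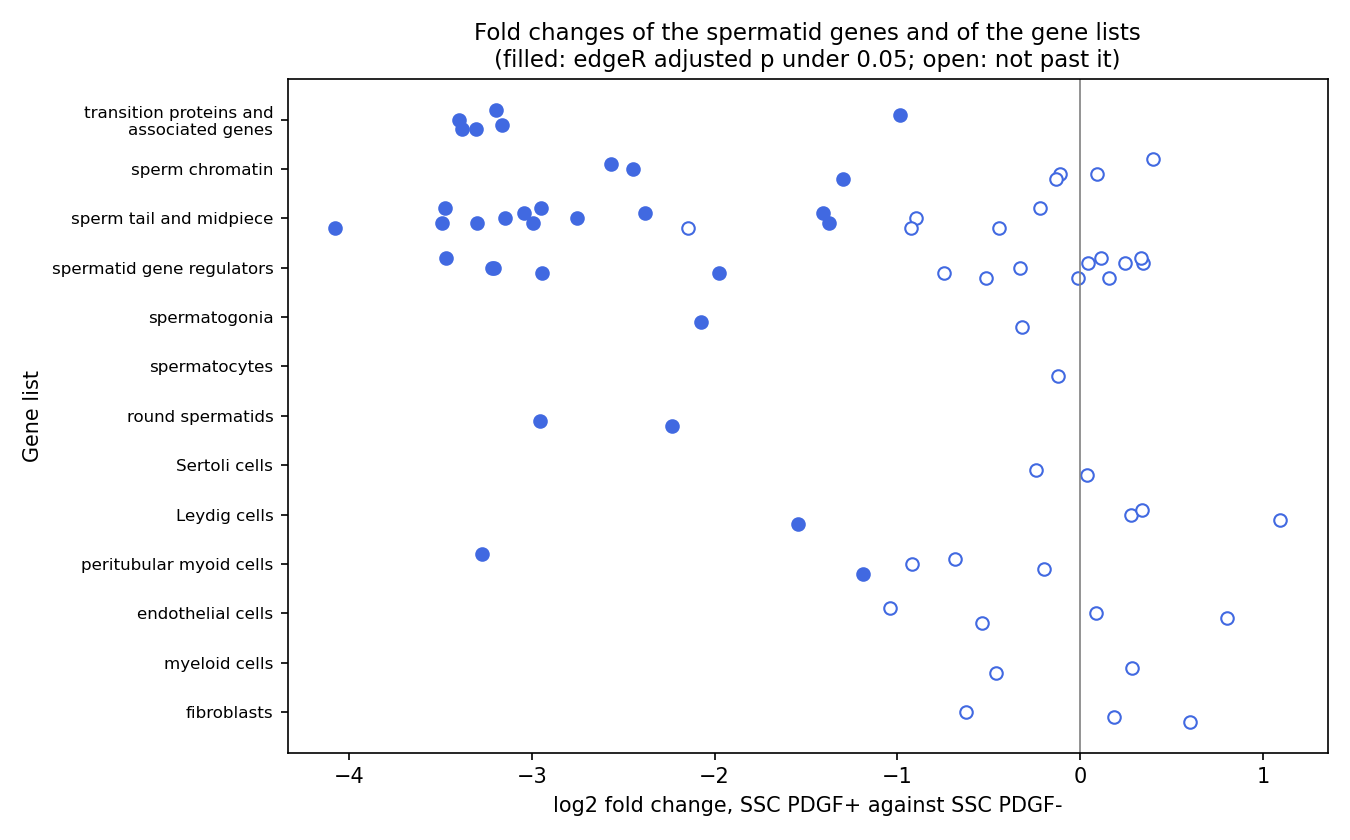
Log2 fold change of each tested gene, SSC PDGF+ against SSC PDGF-, by gene list, filled where edgeR's adjusted p was under 0.05 and open where it was not. The top line shows 5 of the 6 genes between -3.40 and -3.17 and ODF2 at -0.99, and no filled point lies to the right of 0.

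Markers of cell types were read beside these results, and their part in them was not tested. The 7 round spermatid markers in the table summed to 3.68 to 4.22 CPM in SSC PDGF+ and 17.7 to 31.6 CPM in SSC PDGF-, and both that were tested, TMEM190 (log2 fold change -2.23) and CAPZA3 (-2.95), were lower. Spermatocyte markers summed to 1.42 to 2.58 CPM with PDGF and 4.50 to 5.39 CPM without, and the 1 gene tested, ZCWPW1, had 16, 27 and 22 counts against 17, 20 and 20.

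Of 7 spermatogonial markers in the table, DMRT1 had 0 counts in every library, MAGEA4 had 1 count over all libraries, and GFRA1 had 3, 0 and 2 counts under PDGF against 9, 2 and 7 in the controls. A count of 0 allows up to 3 counts in a library. The summed level was 135 to 152 CPM with PDGF and 175 to 259 CPM without, most of it from ID4 and FGFR3, which are also expressed outside the germ line. ID4 had 1885, 1732 and 1725 counts under PDGF against 1803, 1729 and 1802 in the controls, with adjusted p = 0.122 by edgeR, and FGFR3 was called lower (log2 fold change -2.07). ID4 averaged 131 CPM with PDGF and 163 CPM without. With the replicate block it was called lower (adjusted p = 4.95e-05 by edgeR), as were 29.0% of all tested genes. ERBB4 had 2, 0 and 2 counts under PDGF against 1, 0 and 0 in the controls, and ZBTB16 0, 1 and 0 against 5, 4 and 0. Of the markers in the table, ID4 and FGFR3 were thus well above 0 in every library, while DMRT1, MAGEA4, GFRA1, ERBB4 and ZBTB16 were at or near 0. Fibroblast markers were far more abundant, and COL1A1, COL1A2 and DCN together gave 10294 to 15503 CPM with PDGF and 9251 to 12081 CPM without.

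Peritubular myoid markers summed to 369 to 478 CPM with PDGF and 696 to 908 CPM without, and DES and ACTA2 (log2 fold change -1.19) were lower among the 5 tested. IGF1 was lower among 4 tested Leydig cell markers (-1.55). The others, DLK1 (1.09), STAR (0.34) and CYP17A1 (0.27), had log2 fold changes above 0 and were not called. STAR was the most abundant of them, at 296 CPM with PDGF and 234 CPM without, and CYP11A1 was at 0 in every library. No tested Sertoli, endothelial, myeloid or fibroblast marker was called. FATE1 of Sertoli cells did not pass the filter, with 0, 0 and 0 counts under PDGF against 14, 17 and 2 in the controls. CD3E of T cells was at 0 throughout. Over all marker lists 8 of the 27 tested genes were lower, TNP1 and TNP2 among them, and 0 were higher in edgeR. Over all tested genes 10.7% were lower and 7.61% higher. With the replicate block, 13 of the 27 tested were lower and 5 higher, beside 29.0% and 31.1% of all tested genes in that fit, the latter 5 being DLK1, STAR, PECAM1, COL1A1 and COL1A2.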

How the data were processed

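Messenger RNA of 6 libraries of rhesus monkey SSC cultures was sequenced, 3 with PDGF and 3 without, grouped by the sample labels. The authors deposited expected counts per gene without normalization, in which 34 values of 13 genes were not whole, and these were rounded. The submitters' processing notes name fastp, HISAT2 2.1.0, SAMtools, featureCounts 2.0.1 and the builds Mmul_10 and Mmul_8.0.1, with no role given. By name, 17389 of 17795 genes, and 2682 of 2686 LOC identifiers, matched RefSeq annotation release 103 of Mmul_10, from which loci, lengths and sequences were taken. The count files themselves carry no coordinates, and every column was matched to a sample.

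TMM normalization, filterByExpr and the quasi-likelihood test of edgeR 4.0.16 (R 4.3.3) were applied to all genes, with an adjusted p under 0.05 as the threshold and no block. Ratios to TNP1 were computed with 0.5 counts added on the log2 scale and compared by two-sided exact permutation tests, and TNP1 was the reference because the study names it as a spermatid marker. Intervals for the change of a summed ratio between groups are conditional 95% intervals of the odds ratio of the summed counts. They cover counting error only, since PCR duplicates are not marked. Total counts per library were 10593805 to 14102697. The p-values measure the spread between these libraries, which may be technical. Libraries with the same replicate number deviated together from their group means (r = 0.73, 0.35 and 0.37 over 11539 genes, described without a test), and the labels tie the numbers to batches, so a fit with a replicate block was an alternative. Further settings were scaling by upper quartile, by RLE or by totals only, other filters, DESeq2 1.42.0, limma-voom (limma 3.58.1), batch as a term, batch 2 alone, replicates 2 and 3 summed, a stricter threshold, other reference genes and added counts, and each library left out. Steps were tested on simulated data. Named genes are the members, up to 3 called genes per direction with the largest change in each pathway list, marker genes by list, and the 5 genes most like TNP1, of which 1 is not reported here. The members and lists were chosen with earlier results of these data known. Exact tests used scipy 1.17.1 and plots matplotlib 3.10.9, under Python 3.11.15 with pandas 2.3.3.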

Additional observations from a re-analysis of the deposited data

How the results depend on the processing

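TNP1, TNP2, ODF1, AKAP4 and HMGB4 were lower with PDGF and past the threshold under each alternative of the fit, with log2 fold changes between -3.59 and -2.96. ODF2 ranged from -1.05 to -0.90 and lost its call with replicates 2 and 3 summed, which left 5 of 6 genes called. With a replicate block all 6 genes were lower and 0 higher, and no call of these 6 changed.

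The pathway lists had 20 of 39 tested genes lower and 0 higher, beside 10.7% and 7.61% of all tested genes. At least 10 counts in every library left 11 of 28 tested genes lower. This filter drops genes called lower that had few counts under PDGF, such as ROPN1B and ODF4. The number higher was 2 with the replicate block, 2 with batch as a term, 1 in batch 2 alone, and 0 to 1 when each library was left out, with 1 without SSC PDGF- replicate 1. Marker genes lower, 8 of 27 tested, became 13 with the replicate block, in which 29.0% of all genes were lower. They were 13 with batch as a term, 13 in batch 2 alone and 5 at an adjusted p under 0.01. Those higher rose from 0 to 5 of 27 with the replicate block, in which 31.1% of all genes were higher, 5 with batch as a term and 4 in batch 2 alone. Shares over all tested genes are given here only for the main fit and the replicate block. Counts under batch as a term, batch 2 alone, the stricter threshold, other filters or left-out libraries therefore have no background beside them. The causes were not tested.

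The number of genes whose ratio to TNP1 did not overlap, 1 of 5, was 2 in batch 2 alone (ODF2 and AKAP4) and 1 to 2 when each library was left out. By pairs within a replicate number, as in the replicate block, 2 had the same sign in all 3 pairs (ODF2 and AKAP4). Against the summed counts of the other genes all 6 ratios did not overlap, where ODF2 enters the sum for each of the other 5, and with ODF2 left out of the sum, an alternative added after seeing the data, 1 did not. No call changed direction. Among ratio differences that had not been called, signs changed for TNP2 (0.12 to -0.05 without SSC PDGF+ replicate 3 and -0.66 against the summed other genes), AKAP4 (0.10 to -0.007 without SSC PDGF- replicate 3, -0.02 against TNP2 and -0.53 against the sum) and HMGB4 (-0.08 to 0.06 without SSC PDGF+ replicate 2, 0.03 in batch 2 alone and 0.08 without SSC PDGF- replicate 1). Depth limits genes with few counts, such as PIWIL1 and ROPN1B.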
